A study of Mus musculus with 9 samples.

Results

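The expression of 53 genes that encode chromatin remodelers and histone or DNA modifiers was examined in mouse squamous cell carcinoma (SCC) cells with and without focal adhesion kinase (FAK). The members were chosen by name: subunits of the SWI/SNF, ISWI, CHD and INO80 remodelers, Polycomb proteins, histone acetyltransferases and deacetylases, histone methyltransferases and demethylases, DNA methyltransferases and TET dioxygenases. All 53 had an identifier among the 19044 in the count table. The study compared 3 cell lines, with 3 libraries each. FAK-/- cells came from a chemically induced skin tumour of FVB mice with floxed *Ptk2*, the gene for FAK, and a K14CreER transgene, which places a tamoxifen-inducible Cre under a keratin promoter. *Ptk2* had been deleted by treating the cultured cells with 4-hydroxytamoxifen. FAK-WT and FAK-kd cells expressed wild-type or kinase-deficient FAK from a retrovirus in a FAK-/- clone under hygromycin selection, so all 3 groups carry the deletion, and the re-expressing lines derive from a single clone. In the comparisons with FAK-/- cells, differences made by FAK and differences made by the retroviral selection therefore cannot be told apart. The design text of the series calls the libraries biological replicates without naming separate cultures, so p-values measure the spread between these libraries.

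Remodelers use the energy of ATP to slide or evict nucleosomes, and SWI/SNF complexes are known for keeping enhancers and promoters accessible. Acetyltransferases and deacetylases set and remove the acetyl marks of active chromatin. Polycomb complexes place and read repressive histone marks, while DNA methyltransferases and TET enzymes add and oxidise methyl groups on cytosine. FAK is a kinase of focal adhesions that also enters the nucleus, and the study asked how it alters chromatin accessibility and transcription. The comparisons below ask whether transcripts of the chromatin machinery itself differed between the cell lines.

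Levels are given in CPM (counts scaled to library size, after TMM), and fold changes on the log2 scale as the first group over the second. FAK-WT replicate 1 held 779755 counts, 2.31% of the median of the other 8 libraries, which held 25304994 to 37264636. Taking 3 counts as the limit of detection, this library detected a gene from 3.78 CPM, and the others from 0.0798 to 0.118 CPM (counting error only). FAK-/- replicate 3 stood apart in a different way. Across genes, its deviations from the group mean rose with GC content (Spearman's rho 0.662), against -0.517 and -0.567 in the other FAK-/- libraries and -0.0497 to 0.115 in the remaining 6. Deviations are taken from the mean of the same 3 libraries, so the values of the FAK-/- libraries are not independent of each other. Counts of changed members are also given without FAK-WT replicate 1 and without FAK-/- replicate 3. *Ptk2* was at 213, 216 and 216 CPM in FAK-WT, 21.8, 23.5 and 19.6 CPM in FAK-/- and 155, 158 and 176 CPM in FAK-kd cells, in the order of the replicate numbers. The FAK-kd libraries were all below the FAK-WT libraries, so these cell lines also differed in the amount of *Ptk2* transcript. Of 14 squamous epithelial markers, 11 had an identifier. *Krt5*, *Krt14*, *Krt18* and *Cdh1* were at or near 0 in every library and *Dsp* never exceeded 3 counts, so these epithelial markers were at or near the limit of detection in cells that the labels name squamous cell carcinoma. The summed level of that list came almost wholly from the integrins *Itga6* and *Itgb4*, and was 229 to 244 CPM in FAK-WT, 366 to 387 CPM in FAK-/- and 350 to 357 CPM in FAK-kd cells. The fibroblast list (8 of 9 markers with an identifier, *Thy1* at or under 3 counts) summed to 9013 to 9151, 8374 to 9003 and 9318 to 10131 CPM in the same order, mostly from *Vim* and *Col3a1*. Leukocyte markers (5 of 8) summed to 0 to 3.39 CPM and endothelial markers (4 of 5) to 0.24 to 2.05 CPM over all libraries. The part of these marker differences in the results below was not tested.

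In FAK-WT against FAK-/- cells, 12 of the 53 members (22.6%) passed at an adjusted p of up to 0.05 (quasi-likelihood test of edgeR on all 9 libraries, Benjamini-Hochberg over all identifiers). *Chd1* and *Chd4* were higher in FAK-WT cells. *Smarca2*, *Smarcb1*, *Smarcc2*, *Chd3*, *Cbx7*, *Hdac1*, *Hdac5*, *Hdac9*, *Sirt1* and *Kdm6a* were lower. The higher members made up 3.77% of the list and the lower members 18.9%, where the background over all identifiers was 8.01% higher and 9.96% lower, and over the 12235 identifiers kept by edgeR's filterByExpr 11.6% higher and 15.1% lower. Since 52 of the 53 members passed filterByExpr, the second background is the closer one. Only *Smarca2* was past the fold minimum, set at 1 on the log2 scale in either direction. That minimum was passed by 5.38% of all identifiers and by 869 of the 12235 kept identifiers. The median log2 fold change was -0.05 over the members and -0.02 over the kept identifiers. Without FAK-WT replicate 1 the count was 12 and without FAK-/- replicate 3 it was 16, with *Dnmt1*, *Ezh2*, *Hdac2* and *Smarce1* gained. No background share is given for these fits, so the gains are not read as particular to the members.

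In FAK-WT against FAK-kd cells, which differ in the kinase activity of the FAK they express, 13 members (24.5%) passed the same test. FAK-WT and FAK-kd cells are separate retroviral lines that also differed in the amount of *Ptk2* transcript. Kinase activity, that amount and other differences between the lines cannot be told apart here. *Chd1*, *Chd4*, *Chd7*, *Tet2* and *Tet3* were higher in FAK-WT cells, and *Smarca2*, *Smarcb1*, *Smarcc1*, *Smarcc2*, *Arid2*, *Cbx7*, *Hdac5* and *Sirt1* were lower. That is 9.43% of the list higher and 15.1% lower, against 7.58% and 10.2% of all identifiers and 10.7% and 15.5% of the kept identifiers. *Smarca2* was again the member past the fold minimum, which 5.26% of all identifiers and 834 of the 12235 kept identifiers passed. The median log2 fold change was -0.10 over the members and -0.02 over the kept identifiers. In this comparison 7 of 16 markers of dividing cells were also lower in FAK-WT cells and 0 higher. Without FAK-WT replicate 1 the count was 12. Leaving out FAK-/- replicate 3, which is in neither group but adds to the shared estimate of the spread, raised it to 28. No background share is given for that fit, so the 28 are not read as particular to the members. Among those gained were *Smarcd2*, *Smarce1*, *Ezh2*, *Eed*, *Kat2a*, *Hdac2*, *Kdm1a*, *Kdm6a* and *Kdm6b*. These also passed with only the groups compared in the fit, and with a correction for GC content. The fit of only the groups compared also leaves out FAK-/- replicate 3, so these settings are not independent of each other. In the other comparisons, fits of only the groups compared lost calls. These were *Smarca2*, *Smarcb1* and *Kdm6a* in FAK-WT against FAK-/- cells, and *Chd7*, *Dnmt1* and *Tet3* in FAK-kd against FAK-/- cells. Below, passing in no comparison refers to the fit of all 9 libraries. The 2 comparisons with FAK-WT cells share the FAK-WT libraries and are not independent.

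FAK-kd cells differed from FAK-/- cells in 6 members (11.3%). *Ezh1* and *Dnmt1* were higher in FAK-kd cells, and *Chd3*, *Chd7*, *Hdac9* and *Tet3* were lower. The members' shares of 3.77% higher and 7.55% lower stood against 3.97% and 3.88% of all identifiers and 6.11% and 5.81% of the kept identifiers. *Hdac9* was past the fold minimum, which 2.01% of all identifiers and 346 of the 12235 kept identifiers passed. The median log2 fold change was -0.01 over the members and 0.01 over the kept identifiers. The count was 7 without FAK-WT replicate 1 and 6 without FAK-/- replicate 3.

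**Figure D1:**
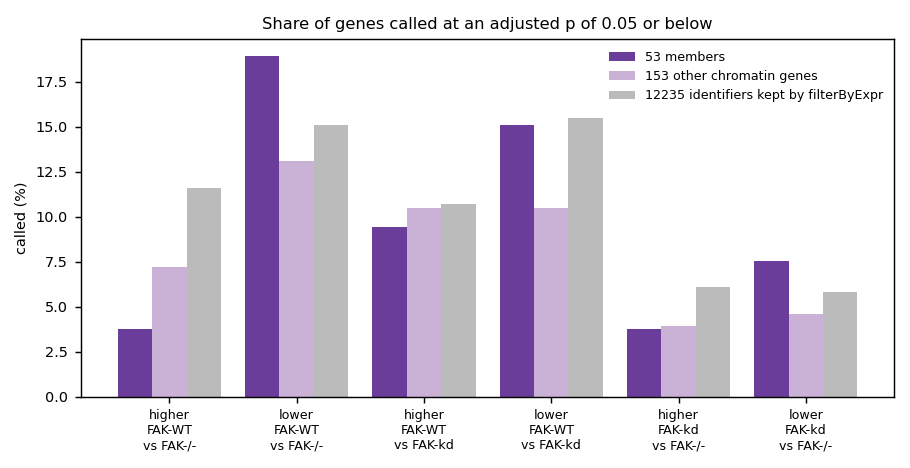
Percent of genes with an adjusted p of 0.05 or below (vertical axis), higher or lower in the first-named cell line, for the 53 members, 153 other chromatin genes and the 12235 identifiers kept by filterByExpr. The members' bars range from 3.77% to 18.9% and lie on either side of the grey background bars.

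Across the 3 comparisons, 19 members (35.8%) passed the test at least once and 34 never did, against 26% of all identifiers and 38.3% of the kept identifiers that passed at least once. The 95% confidence interval of the log2 fold change lay wholly within 1 of 0 in 48, 49 and 49 of the 53 members in the order of the comparisons above. Apart from *Smarca2* and *Hdac9*, the called changes were themselves below 1 in size. The intervals therefore do not show the members that did not pass to be unchanged. *Smarca1*, an ISWI ATPase, had between 0 and 3 counts in every library and is given no fold change. Leaving out *Smarca1*, and *Tet1* with its few counts, the log2 fold changes of the members that did not pass ran from -0.31 to 0.48 in FAK-WT against FAK-/-, from -0.38 to 0.38 in FAK-WT against FAK-kd and from -0.45 to 0.84 in FAK-kd against FAK-/- cells. At the depth of FAK-WT replicate 1, 46 members had at least 10 counts there, with a median of 56 over the list. Per kilobase of transcript, *Smarcb1* had the highest mean level over the 9 libraries (85 CPM per kb, 70.3 to 97), followed by *Kat2a* (65.3, range 57.2 to 77.3), with overlapping ranges. *Tet1*, at 0 to 0.0557 CPM per kb, was the lowest of the 52 members that passed the filter.

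**Figure D2:**
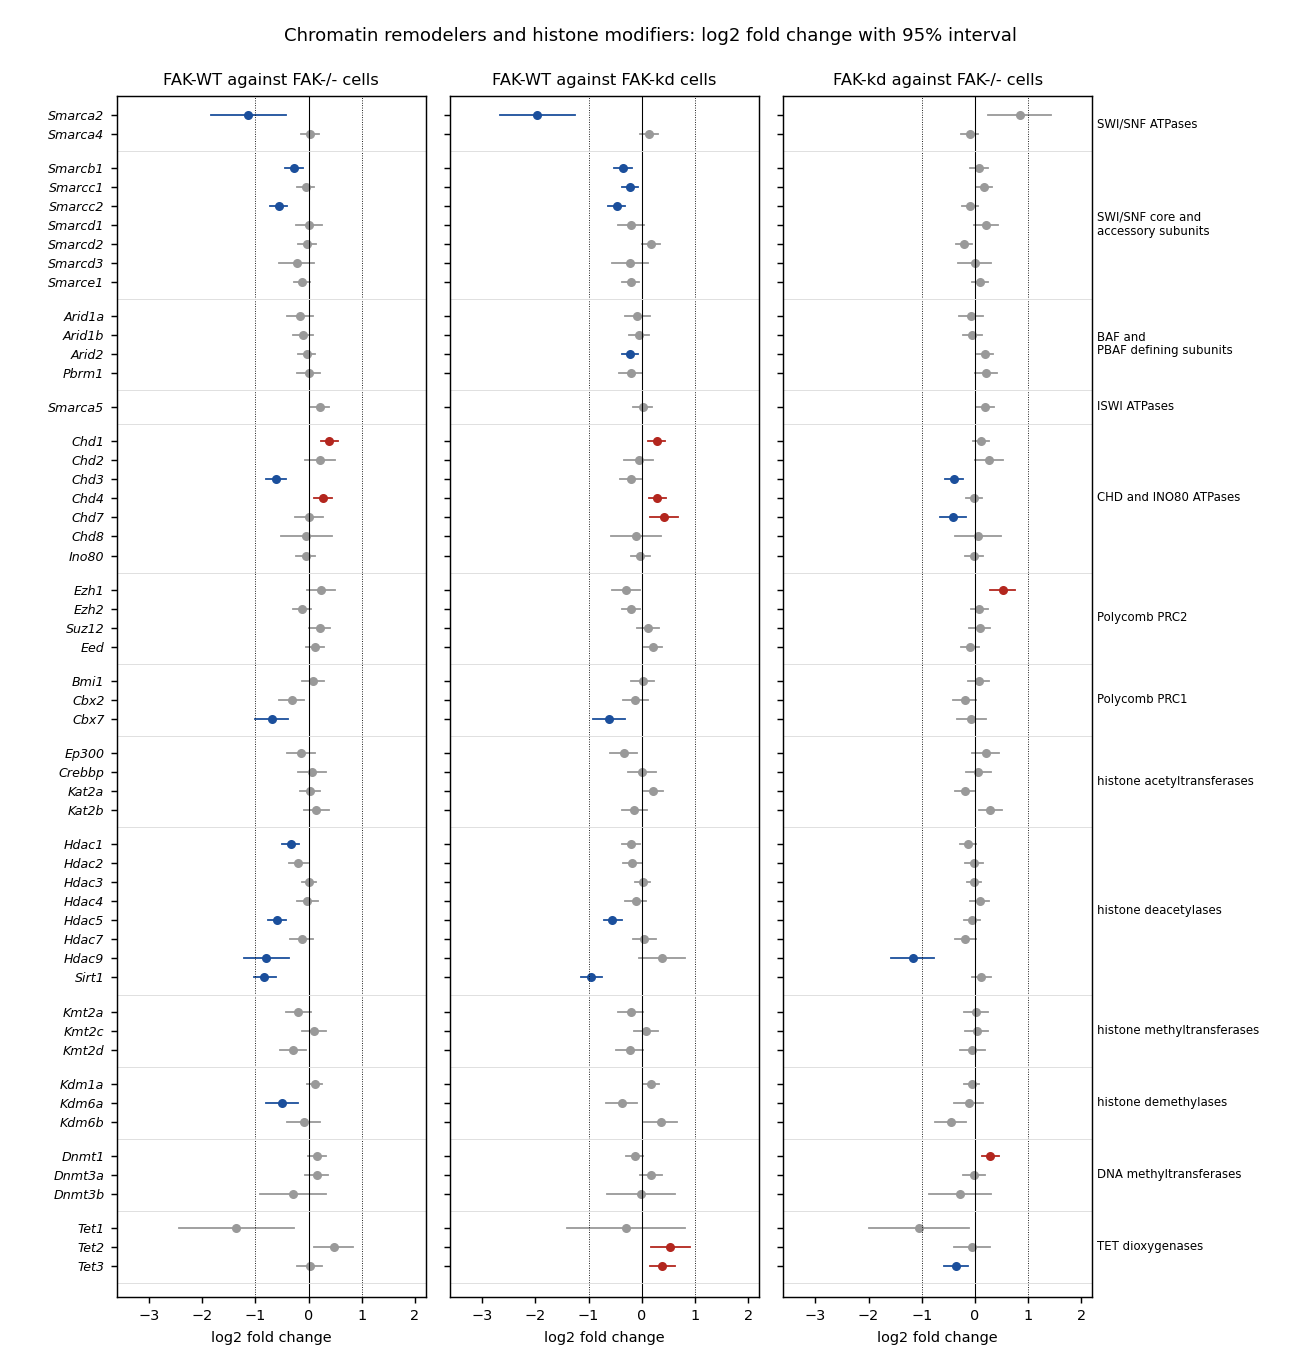
Log2 fold change (horizontal axis) with its 95% confidence interval for 52 members (*Smarca1* is left out), grouped by role, in the 3 comparisons; red and blue mark members higher or lower at an adjusted p of 0.05 or below, grey the rest, and dotted lines a log2 fold change of 1 in size. Most intervals lie within the dotted lines, and the called points farthest from 0 are *Smarca2* at -1.13 and -1.96 and *Hdac9* at -1.17.

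SWI/SNF complexes hold 1 of 2 alternative ATPases, SMARCA4 (BRG1) or SMARCA2 (BRM). *Smarca2* (ENSMUSG00000024921, chromosome 19, 26605050 to 26778322, plus strand, GRCm38) was at 6.29, 4.42 and 2.83 CPM in FAK-WT, 12.3, 8.08 and 4 CPM in FAK-/- and 16.5, 12.8 and 14.3 CPM in FAK-kd cells. The FAK-kd libraries were all above the FAK-WT libraries, and the FAK-/- libraries spread over the range between and overlapped FAK-WT. The log2 fold change was -1.96 in FAK-WT against FAK-kd cells (SE 0.33, edgeR adjusted p = 5.52e-04), a level 3.90 times as high in FAK-kd cells, and it passed the test with each of the 9 libraries left out in turn (-2.23 to -1.66). Against FAK-/- cells it was -1.13 (SE 0.33, edgeR adjusted p = 0.0278). That call was lost without FAK-WT replicate 3, FAK-/- replicate 1, FAK-kd replicate 1 or FAK-kd replicate 3, with log2 fold changes from -1.47 to -0.67 and an adjusted p of up to 0.222 over all 9 such fits. FAK-kd against FAK-/- cells gave 0.84 (SE 0.28, edgeR adjusted p = 0.085). FAK-WT replicate 1 held 5 counts of *Smarca2*. *Smarca4* was at 231 to 255 CPM in FAK-WT, 214 to 260 CPM in FAK-/- and 216 to 228 CPM in FAK-kd cells, with log2 fold changes of 0.03, 0.13 and -0.10 that did not pass. Scaled for transcript length, *Smarca2* was thus 1.3 to 2.8% of the summed level of both ATPase genes in FAK-WT cells. The share was 1.63 to 5.83% in FAK-/- cells and 6 to 7.58% in FAK-kd cells. The length used for *Smarca2* was that of a long coding transcript, 5921 bases. GENCODE lists 46 transcripts of the gene, with a coding one starting inside it at 26750318. The share of the pair therefore depends on that choice of length.

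The stretch before the annotated *Smarca2* start is shown because this gene had the largest fold change of the members called. It is chr19:26604910-26605049 on the plus strand (140 bases, RefSeq promoter, GRCm38.p6), and it ends just before the first GENCODE transcript start. No base is in capitals because none of the motifs searched, given at the end of the results, was found in the RefSeq promoter.
Smarca2: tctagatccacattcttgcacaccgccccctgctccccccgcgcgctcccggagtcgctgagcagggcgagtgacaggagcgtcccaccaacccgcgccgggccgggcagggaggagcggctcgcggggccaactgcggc
Gene-level counts sum transcripts from every start, so they do not say how much of the RNA began here.

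Among the 7 core and accessory SWI/SNF subunits, *Smarcc2* (BAF170, a scaffold subunit) had the largest change. It was at 94.4, 109 and 103 CPM in FAK-WT, 149, 150 and 160 CPM in FAK-/- and 134, 151 and 148 CPM in FAK-kd cells. All FAK-WT libraries lay below all others, with a log2 fold change of -0.56 against FAK-/- (SE 0.07, edgeR adjusted p = 7.15e-05) and -0.47 against FAK-kd cells (SE 0.07, edgeR adjusted p = 3.34e-04). FAK-kd against FAK-/- cells gave -0.09 (95% interval -0.24 to 0.06). Both calls stood with each library left out. Its paralogue *Smarcc1* (BAF155) was at 121 to 146, 135 to 145 and 156 to 162 CPM. *Smarcc1* was lower in FAK-WT than in FAK-kd cells (-0.23, SE 0.07, edgeR adjusted p = 0.0454), a call lost in 7 of the 9 fits with a library left out (any but FAK-WT replicate 2 and FAK-/- replicate 3, adjusted p up to 0.252). By length-scaled level, *Smarcc2* made up 49.4% ± 0.755 (SD, n = 3) of the pair in FAK-WT cells, 58% ± 1.78 in FAK-/- cells and 53.6% ± 1.55 in FAK-kd cells, without overlap between the groups.

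*Smarcb1* (SNF5, a core subunit of all canonical SWI/SNF complexes) was at 137, 117 and 117 CPM in FAK-WT, 143, 134 and 161 CPM in FAK-/- and 154, 153 and 154 CPM in FAK-kd cells. FAK-WT replicate 1 overlapped the FAK-/- range. It fell by 0.28 on the log2 scale in FAK-WT against FAK-/- (SE 0.08, edgeR adjusted p = 0.0273) and by 0.35 against FAK-kd cells (SE 0.08, edgeR adjusted p = 0.00649). The first call was lost without FAK-WT replicate 2 or 3, FAK-/- replicate 1 or FAK-kd replicate 2 or 3 (adjusted p up to 0.166), and the second without FAK-WT replicate 2 or 3 (up to 0.0686). *Smarcd1*, *Smarcd2*, *Smarcd3* and *Smarce1* passed in no comparison. *Smarcd3* shared 29.91% of its sampled 31-base words with *Chpf2*, and *Smarce1* 37.57% with pseudogenes, so their counts may hold reads of those genes. Of the subunits that define the BAF and PBAF forms, *Arid1a*, *Arid1b* and *Pbrm1* passed in no comparison. *Arid2*, of PBAF, was lower in FAK-WT than in FAK-kd cells (87 ± 2.85 against 103 ± 4.69 CPM, SD, n = 3, log2 -0.23, edgeR adjusted p = 0.0472), and passed in 1 of the 9 fits with a library left out, that without FAK-/- replicate 3 (adjusted p up to 0.23 in the others). *Actl6a*, a further SWI/SNF subunit that is no member of the list, was at 131 to 157 CPM in FAK-WT, 136 to 143 CPM in FAK-/- and 142 to 160 CPM in FAK-kd cells and did not pass.

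CHD proteins are ATPases with chromodomains, and CHD3 and CHD4 are alternative ATPases of the NuRD deacetylase complex. In FAK-WT against FAK-/- cells *Chd3* was lower and *Chd4* higher. *Chd3* was at 95.7, 99.1 and 92.3 CPM in FAK-WT, 143, 142 and 153 CPM in FAK-/- and 95, 120 and 118 CPM in FAK-kd cells. Every FAK-/- library was above every other. Its log2 fold change was -0.61 in FAK-WT against FAK-/- (SE 0.09, edgeR adjusted p = 1.70e-04) and -0.40 in FAK-kd against FAK-/- cells (SE 0.08, edgeR adjusted p = 0.0082), and both calls stood with each library left out. FAK-WT against FAK-kd cells gave -0.21 (edgeR adjusted p = 0.124). *Chd4* was at 375, 377 and 350 CPM in FAK-WT, 296, 310 and 302 CPM in FAK-/- and 274, 296 and 331 CPM in FAK-kd cells, and FAK-WT was the high group without overlap. It rose by 0.28 against FAK-/- (SE 0.08, edgeR adjusted p = 0.0184, lost without FAK-WT replicate 2 or FAK-/- replicate 1, up to 0.103) and 0.29 against FAK-kd cells (SE 0.08, edgeR adjusted p = 0.0138, lost without FAK-WT replicate 2 or FAK-kd replicate 2, up to 0.078). *Chd3* thus supplied 19.4% ± 0.289 (SD, n = 3) of the length-scaled level of the pair in FAK-WT cells, 30.8% ± 1.01 in FAK-/- cells and 25.4% ± 1.64 in FAK-kd cells, and no library of 1 group lay within the range of another.

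*Chd1*, an ATPase of transcribed genes, was at 116, 136 and 128 CPM in FAK-WT, 93.7, 106 and 94.5 CPM in FAK-/- and 105, 105 and 108 CPM in FAK-kd cells. It rose by a log2 fold change of 0.39 over FAK-/- cells (SE 0.08, edgeR adjusted p = 0.00161, called with each library left out). Over FAK-kd cells the value was 0.28 (SE 0.08, edgeR adjusted p = 0.0148, lost without FAK-WT replicate 2 or 3 or FAK-kd replicate 2, up to 0.144). *Chd7*, which binds enhancers, was at 23.9, 25.1 and 21.2 CPM in FAK-WT, 22.1, 21.3 and 26 CPM in FAK-/- and 14.9, 17.7 and 19.4 CPM in FAK-kd cells. FAK-kd was the low group, at 0.42 below both FAK-WT (edgeR adjusted p = 0.0286) and FAK-/- cells (edgeR adjusted p = 0.0393) on the log2 scale. Each *Chd7* call was lost in 3 fits. Against FAK-WT these were without FAK-WT replicate 2, FAK-kd replicate 1 or 2 (adjusted p up to 0.203), and against FAK-/- without FAK-/- replicate 3, FAK-kd replicate 1 or 2 (up to 0.132). *Chd2*, *Chd8*, *Ino80* and the ISWI ATPase *Smarca5* passed in no comparison. *Smarca5* shared 40.68% of its sampled words with pseudogenes.

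**Figure D3:**
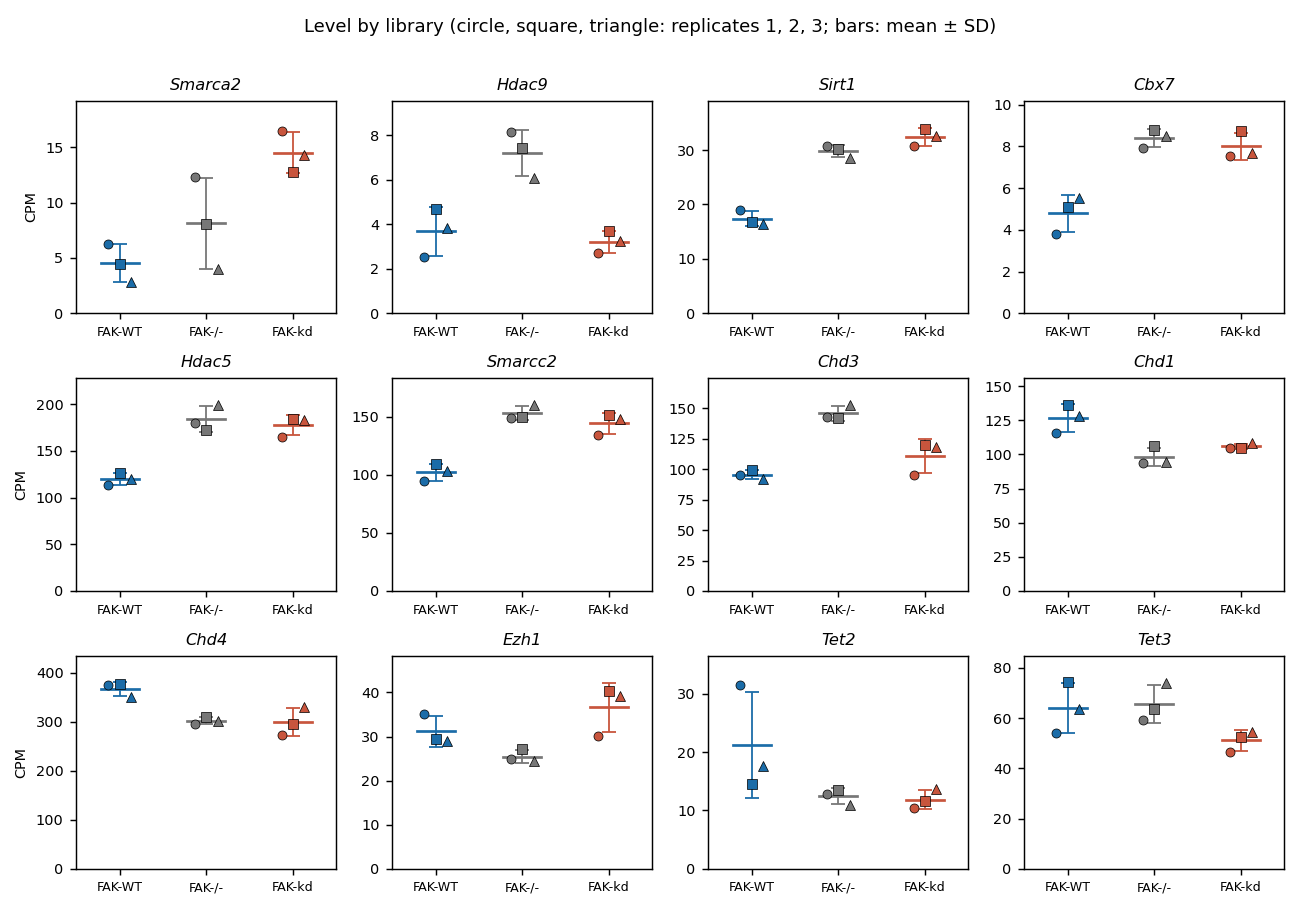
CPM by library (vertical axis, from 0) for 12 members in FAK-WT (blue), FAK-/- (grey) and FAK-kd (red) cells; symbols are replicates 1, 2 and 3, and bars the mean ± SD. *Sirt1*, *Hdac5* and *Smarcc2* show FAK-WT libraries below all others, *Chd3* and *Hdac9* FAK-/- libraries above all others, and *Smarca2* a wide spread in FAK-/- cells (4 to 12.3 CPM).

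Polycomb repressive complex 2 methylates lysine 27 of histone H3 through EZH1 or EZH2. *Ezh1* was at 35.2, 29.4 and 28.9 CPM in FAK-WT, 24.9, 27.1 and 24.4 CPM in FAK-/- and 30.2, 40.4 and 39.2 CPM in FAK-kd cells, with all FAK-/- libraries lowest. It was higher in FAK-kd than in FAK-/- cells by 0.52 on the log2 scale (SE 0.11, edgeR adjusted p = 0.00909). The call was lost without FAK-kd replicate 2 or 3 (adjusted p up to 0.0682). FAK-WT against FAK-/- cells gave 0.23 (edgeR adjusted p = 0.239). *Ezh2*, *Suz12* and *Eed* passed in no comparison. By length-scaled level, *Ezh1* was 15.2 to 17.5% of the pair with *Ezh2* in FAK-/-, 19.5 to 23.3% in FAK-WT and 17.7 to 23.3% in FAK-kd cells, so the FAK-WT and FAK-kd ranges overlapped.

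Of the 3 members of Polycomb repressive complex 1, *Cbx7*, a chromodomain protein that reads the mark of complex 2, was lower in FAK-WT cells. It was at 3.78, 5.08 and 5.51 CPM in FAK-WT, 7.91, 8.79 and 8.52 CPM in FAK-/- and 7.56, 8.75 and 7.7 CPM in FAK-kd cells, and FAK-WT did not overlap either group. The log2 fold change was -0.69 against FAK-/- (SE 0.14, edgeR adjusted p = 0.00334) and -0.62 against FAK-kd cells (SE 0.14, edgeR adjusted p = 0.00667). The first call stood with each library left out and the second was lost without FAK-WT replicate 2 or FAK-kd replicate 2 (up to 0.0817). FAK-WT replicate 1 held 3 counts of *Cbx7*, the floor, and without it the values were -0.67 (adjusted p = 0.00358) and -0.60 (0.00704). *Bmi1* and *Cbx2* passed in no comparison. *Bmi1* shared 30.49% of its sampled words with other genes.

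Of the 8 histone deacetylases, 4 were lower in FAK-WT relative to FAK-/- cells (50%, against 15.1% of the kept identifiers), among them *Hdac1*, whose value is uncertain. Relative to FAK-kd cells 2 of the 8 were lower in FAK-WT (25%, against 15.5%), and 1 was lower in FAK-kd against FAK-/- cells (12.5%, against 5.81%). The list is small and nothing particular to it is read from these shares. None of the 4 acetyltransferases (*Ep300*, *Crebbp*, *Kat2a*, *Kat2b*) passed in any comparison. *Ep300* was at 50.4, 86.9 and 80.5 CPM in FAK-WT and 87.2, 102 and 111 CPM in FAK-kd cells, which did not overlap (log2 -0.34, edgeR adjusted p = 0.0748). In that comparison *Ep300* passed without FAK-/- replicate 3 and with the replicate number as a block. It did not pass with only the groups compared or with the correction for GC content. *Sirt1*, an NAD-dependent deacetylase (ENSMUSG00000020063, chromosome 10, 63319005 to 63381704, minus strand), had the smallest adjusted p of the members in both comparisons with FAK-WT cells. It was at 18.9, 16.8 and 16.4 CPM in FAK-WT, 30.8, 30.2 and 28.6 CPM in FAK-/- and 30.7, 33.9 and 32.6 CPM in FAK-kd cells. All FAK-WT libraries lay below all others. Its log2 fold change was -0.83 against FAK-/- (SE 0.10, edgeR adjusted p = 1.78e-05) and -0.95 against FAK-kd cells (SE 0.10, edgeR adjusted p = 4.78e-06), so FAK-kd cells held 1.93 times the level of FAK-WT cells. With each library left out these stayed within -0.87 to -0.79 and -0.97 to -0.90 and were called each time. FAK-kd against FAK-/- cells gave 0.12 (95% interval -0.06 to 0.30).

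*Hdac5*, a class IIa deacetylase that shuttles between nucleus and cytoplasm, was at 113, 126 and 120 CPM in FAK-WT, 180, 172 and 199 CPM in FAK-/- and 165, 184 and 183 CPM in FAK-kd cells. FAK-WT was again the low group without overlap, with a log2 fold change of -0.60 against FAK-/- (SE 0.08, edgeR adjusted p = 5.60e-05) and -0.55 against FAK-kd cells (SE 0.08, edgeR adjusted p = 1.30e-04), both called with each library left out. FAK-kd against FAK-/- cells gave -0.05 (95% interval -0.21 to 0.10). The other class IIa genes *Hdac4* and *Hdac7* passed in no comparison, and *Hdac5* made up 49.8 to 49.9% of the length-scaled level of *Hdac4*, *Hdac5*, *Hdac7* and *Hdac9* in FAK-WT cells, 56.6 to 58.9% in FAK-/- cells and 58.3 to 60.2% in FAK-kd cells. *Hdac1*, the class I enzyme of NuRD and other corepressors, was lower in FAK-WT relative to FAK-/- cells (78.4 ± 9.07 against 102 ± 4.08 CPM, SD, n = 3, log2 -0.33, edgeR adjusted p = 0.00727, called with each library left out). Its sampled words were shared to 61.9%, mostly with the pseudogene *Gm10093*, so this value is uncertain. *Hdac2* and *Hdac3* passed in no comparison, and *Hdac3* was at 97.5 to 105 CPM over all 9 libraries.

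*Hdac9*, another class IIa gene, had FAK-/- as the high group. It was at 2.52, 4.68 and 3.84 CPM in FAK-WT, 8.12, 7.41 and 6.08 CPM in FAK-/- and 2.7, 3.68 and 3.22 CPM in FAK-kd cells. All FAK-/- libraries lay above all others, while FAK-WT and FAK-kd overlapped. Its log2 fold change was -1.17 in FAK-kd against FAK-/- cells (SE 0.19, edgeR adjusted p = 9.18e-04, -1.29 to -1.07 and called with each library left out), a level 2.25 times as high in FAK-/- cells. FAK-WT against FAK-/- cells gave -0.79 (SE 0.20, edgeR adjusted p = 0.0117), lost without FAK-WT replicate 3 or FAK-/- replicate 1 (adjusted p up to 0.117). FAK-WT replicate 1 held 2 counts, and without it the value was -0.76 (adjusted p = 0.0136). FAK-WT against FAK-kd cells gave 0.38 (95% interval -0.05 to 0.81). The stretch before an internal *Hdac9* start is shown because it holds the letters of an AP-1 site, in capitals. The other RefSeq promoter of *Hdac9*, at the annotated start of the gene (chr12:34917096-34917345), held none of the motifs searched. The stretch shown is chr12:34528890-34528989 on the minus strand (100 bases, RefSeq promoter, GRCm38.p6), within an intron of longer GENCODE transcripts of the gene.
Hdac9: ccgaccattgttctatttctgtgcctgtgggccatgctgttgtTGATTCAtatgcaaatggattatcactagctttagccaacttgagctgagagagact
AP-1 factors are a transcription factor family that the study examined in these cells, and the match describes the sequence and no binding.

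Histone lysine methyltransferases of the MLL family (*Kmt2a*, *Kmt2c*, *Kmt2d*), which methylate lysine 4 of histone H3, passed in no comparison. Of the demethylases, *Kdm6a* (UTX), which removes methyl groups from lysine 27 of histone H3, was at 15.1, 21.7 and 26 CPM in FAK-WT, 34.8, 36.2 and 26.7 CPM in FAK-/- and 29.2, 28.3 and 32.6 CPM in FAK-kd cells. FAK-/- replicate 3 lay just above the highest FAK-WT library and well below the other FAK-/- libraries. The log2 fold change was -0.50 in FAK-WT against FAK-/- cells (SE 0.14, edgeR adjusted p = 0.0228), lost without FAK-WT replicate 2 or FAK-/- replicate 1 or 2 (adjusted p up to 0.15). Without FAK-/- replicate 3 it was -0.60 (adjusted p = 1.71e-04). *Kdm1a* and *Kdm6b* passed in no comparison. *Kdm6b* was at 65.8, 65.2 and 96.6 CPM in FAK-/- and 48.8, 60.2 and 57.1 CPM in FAK-kd cells (log2 -0.45, edgeR adjusted p = 0.0567).

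*Dnmt1* copies DNA methylation during replication. It was at 238, 263 and 238 CPM in FAK-WT, 208, 225 and 234 CPM in FAK-/- and 249, 274 and 293 CPM in FAK-kd cells, and FAK-kd lay above FAK-/- without overlap (log2 0.29, SE 0.08, edgeR adjusted p = 0.0284). The call was lost without FAK-WT replicate 3, FAK-/- replicate 1 or 2, or FAK-kd replicate 2 or 3 (adjusted p up to 0.189). Some markers of dividing cells were also higher in FAK-kd cells. All 16 had an identifier, with 5 higher and 0 lower in FAK-kd against FAK-/- cells (median log2 0.17), 0 higher and 7 lower in FAK-WT against FAK-kd cells (-0.18), and 2 higher and 3 lower in FAK-WT against FAK-/- cells (0.02). Their summed level was 4754 to 4869 CPM in FAK-kd, 4146 to 4387 in FAK-/- and 4125 to 4337 in FAK-WT cells. The part of these differences in the *Dnmt1* result and in the other member calls was not tested. In bulk RNA, fewer expressing cells and less RNA per cell cannot be told apart for any member. The de novo methyltransferases *Dnmt3a* and *Dnmt3b* passed in no comparison.

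TET enzymes oxidise 5-methylcytosine. *Tet3* was at 54.1, 74.2 and 63.4 CPM in FAK-WT, 59.2, 63.7 and 74 CPM in FAK-/- and 46.4, 52.5 and 54.3 CPM in FAK-kd cells. FAK-kd was the low group, although FAK-WT replicate 1 fell within its range. Differences on the log2 scale were 0.38 in FAK-WT against FAK-kd (SE 0.11, edgeR adjusted p = 0.0232) and -0.36 in FAK-kd against FAK-/- cells (SE 0.10, edgeR adjusted p = 0.0451). These passed in 4 and 3 of the 9 fits with a library left out. The first was lost without FAK-WT replicate 2 or 3 or any FAK-kd replicate (adjusted p up to 0.249), and the second also without FAK-/- replicate 2 (up to 0.177). *Tet2* was at 31.5, 14.5 and 17.6 CPM in FAK-WT, 12.9, 13.5 and 10.9 CPM in FAK-/- and 10.4, 11.6 and 13.6 CPM in FAK-kd cells. Its highest value came from 25 counts in FAK-WT replicate 1. *Tet2* was higher in FAK-WT than in FAK-kd cells (log2 0.54, SE 0.17, edgeR adjusted p = 0.0399). Without FAK-WT replicate 1 the value was 0.43 (adjusted p = 0.0366), and the call was lost without FAK-WT replicate 3 or FAK-kd replicate 1 or 2 (up to 0.141). Against FAK-/- cells the log2 fold change was 0.48 (edgeR adjusted p = 0.0699). *Tet1*, with at most 26 counts in a library, passed in no comparison (log2 -1.36 in FAK-WT against FAK-/- cells, edgeR adjusted p = 0.0801).

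**Figure D4:**
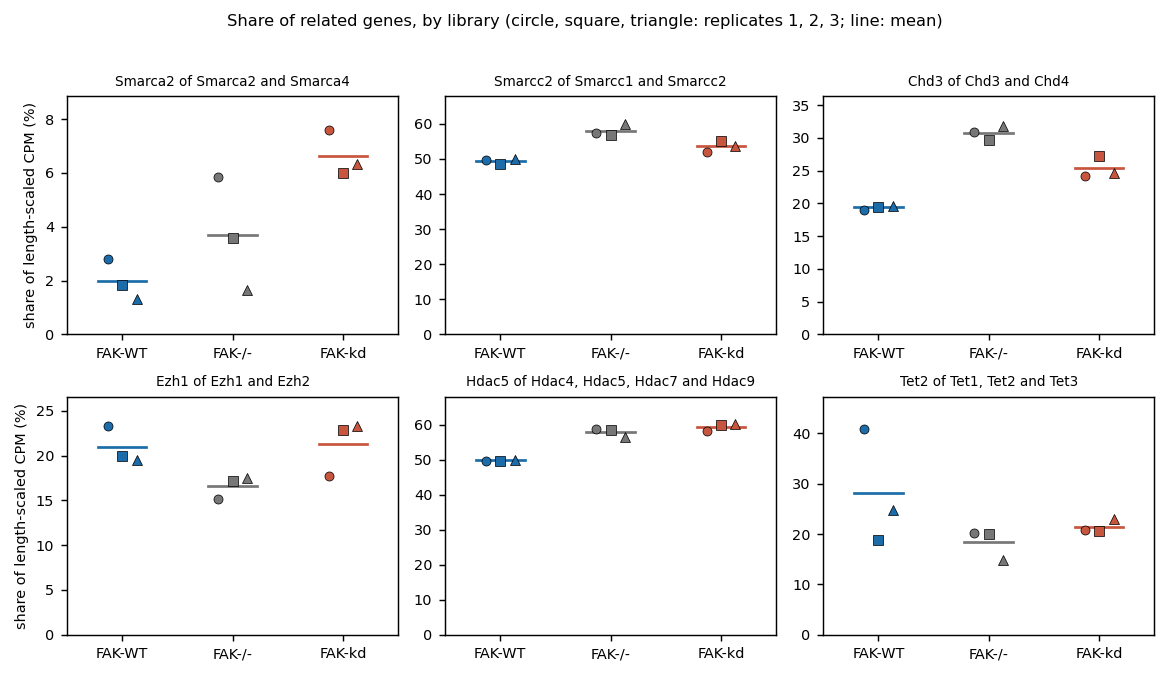
Share of the first-named gene in the summed length-scaled level of related genes, in percent (vertical axis, from 0), by library; symbols are replicates 1, 2 and 3 and lines the mean. The share of *Chd3* separates the 3 cell lines (19.4%, 30.8% and 25.4% on average in FAK-WT, FAK-/- and FAK-kd), whereas that of *Tet2* in FAK-WT runs from 18.8% to 40.9%.

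Further genes of the same complexes and enzyme classes were read from a second list, of which 153 of 155 had an identifier and 150 passed filterByExpr. In FAK-WT against FAK-/- cells 11 were higher and 20 lower, against FAK-kd cells 16 were higher and 16 lower, and in FAK-kd against FAK-/- cells 6 were higher and 7 lower (20.3%, 20.9% and 8.5% in all, edgeR, Benjamini-Hochberg adjusted p of 0.05 or below). The same shares were 18%, 17.7% and 7.84% of all identifiers and 26.7%, 26.2% and 11.9% of the kept identifiers, so these genes did not pass more often than the kept identifiers. Their median log2 fold changes were -0.02, 0.00 and -0.02. *Nsd1*, a methyltransferase of lysine 36 of histone H3, was at 6.29, 10.3 and 8.33 CPM in FAK-WT, 18.5, 16.2 and 15.3 CPM in FAK-/- and 21.2, 20.3 and 31.1 CPM in FAK-kd cells. FAK-WT was the low group, with log2 fold changes of -0.86 (edgeR adjusted p = 0.0022) and -1.40 (edgeR adjusted p = 3.08e-05). FAK-kd against FAK-/- cells gave 0.53 (edgeR adjusted p = 0.0403), a call that stood in 5 of the 9 fits with a library left out (adjusted p up to 0.269). *Baz1a*, the ACF1 partner of the ISWI ATPase SMARCA5, was at 108, 95.2 and 94.7 CPM in FAK-WT, 53.5 to 59.4 CPM in FAK-/- and 54.4 to 58.9 CPM in FAK-kd cells. The log2 differences of 0.79 (edgeR adjusted p = 3.55e-06) and 0.77 (edgeR adjusted p = 4.65e-06) stood beside a *Smarca5* level of 262 to 279, 200 to 254 and 263 to 272 CPM that did not pass.

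Of the other named genes, *Kdm5b*, a demethylase of lysine 4 of histone H3, was low in FAK-kd cells, at 9.77 to 11.7 CPM against 16.4 to 20.5 in FAK-WT and 13.8 to 17.9 in FAK-/- cells. The log2 fold change was 0.87 in FAK-WT against FAK-kd (edgeR adjusted p = 8.62e-05) and -0.54 in FAK-kd against FAK-/- cells (edgeR adjusted p = 0.00731). *Dnmt3l*, a cofactor of the de novo methyltransferases, was at 0.71 to 0.928 CPM in FAK-/-, 1.7 to 2.34 in FAK-kd and 1.36 to 2.52 in FAK-WT cells, with a log2 fold change of 1.27 in FAK-kd against FAK-/- (edgeR adjusted p = 0.0112) and 0.94 in FAK-WT against FAK-/- cells (edgeR adjusted p = 0.0484). *Hdac11* was lower in FAK-WT than in FAK-kd cells (-1.81, edgeR adjusted p = 0.00723) at no more than 1.02 CPM. *Dnmt3l* and *Hdac11* both lay under 3.78 CPM, the detection limit of FAK-WT replicate 1. Without FAK-WT replicate 1, *Dnmt3l* gave 0.88 against FAK-/- (edgeR adjusted p = 0.0527) and *Hdac11* -1.77 against FAK-kd cells (edgeR adjusted p = 0.00719). *Kat8* and *Phc1* were lower in FAK-WT relative to FAK-/- cells (-0.57 each), *Chd9* was higher (0.83), *Rcor2* was higher (0.80) and *Sirt6* lower (-0.47) in FAK-WT than in FAK-kd cells, and *Kdm7a* was higher (0.52) and *Kmt5c* and *Ing1* lower (-0.80 and -0.66) in FAK-kd than in FAK-/- cells (edgeR, Benjamini-Hochberg adjusted p of 0.05 or below). With each library left out in turn, the *Dnmt3l* call stood in 2 of 9 fits in FAK-WT against FAK-/- (adjusted p up to 0.212) and in 8 in FAK-kd against FAK-/- cells (0.0511), that of *Hdac11* in 8 (0.0849), *Chd9* in 5 (0.151), *Sirt6* in 6 (0.0901), *Kdm7a* in 4 (0.132) and *Ing1* in 6 (0.13). *Ing1* was at 40.6 CPM in FAK-/- replicate 3 and 22.1 and 24.1 CPM in the other FAK-/- libraries, and *Chd9* at 4.58 against 11 and 11.9 CPM, and without that library the values were -0.34 (edgeR adjusted p = 0.011) and 0.51 (edgeR adjusted p = 0.00653). *Wdr82*, a subunit of a methyltransferase complex of lysine 4 of histone H3, was at 106, 138 and 133 CPM in FAK-WT, 160, 154 and 149 CPM in FAK-/- and 156, 154 and 145 CPM in FAK-kd cells, with every FAK-WT library below the others. Relative to FAK-/- cells it was lower in FAK-WT (log2 -0.25, SE 0.08, edgeR adjusted p = 0.046), a call that stood in 1 of the 9 fits with a library left out, that without FAK-/- replicate 3 (adjusted p up to 0.169 in the others). FAK-WT against FAK-kd cells gave -0.22 (edgeR adjusted p = 0.0774).

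RefSeq promoters, of which the 250 bases before the start were searched, were matched for 43 of the 53 members (54 promoters) and 14 of the 19 called ones (18 promoters). The motifs were AP-1 (TGANTCA), CRE (TGACGTCA) and ETS (CCGGAAGT), on both strands, chosen with the results known. No motif contains another. AP-1 letters stood in 3 of the 54 promoters (5.56%) and in 6.75% of the 32851 promoters of the table. They lay 57 bases before the internal start in *Hdac9*, printed above, 159 in *Smarcb1* and 240 in *Kat2b*. CRE and ETS letters were in 0 of the 54, against 1.55% and 2.88% of all promoters. The promoters of the members held 0 to 51 CpG with a median of 22, and 3 of the 54 held 2 or fewer, both *Hdac9* promoters among them.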

How the data were processed

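RNA had been prepared as unstranded TruSeq libraries and sequenced paired-end on a HiSeq 4000. The authors pseudoaligned the reads with kallisto 0.43.1 (version from the submitters' processing notes) and collapsed transcripts to genes through tximport. The deposited table holds the resulting estimated counts, as whole numbers, for 19044 Ensembl identifiers. The build is GRCm38, and the transcriptome release is not given in the sources used here. Groups and replicate numbers were read from the sample titles.

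Counts were tested with edgeR 4.0.16 in R 4.3.3 (TMM, glmQLFit and glmQLFTest, no filter) in 1 fit of all 9 libraries and no covariate beside the cell line. P-values were adjusted by Benjamini-Hochberg over all identifiers. A member counted as changed at an adjusted p of 0.05 or below, and as past the fold minimum if its log2 fold change was also at least 1 in size. SE is the log2 fold change divided by the square root of F. Steps were tested on simulated data. Exact permutation of 3 libraries against 3 cannot go below p = 0.1 and was not used.

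Symbols, positions and lengths came from GENCODE, with 188 identifiers lacking a symbol. The length of a member was that of its longest coding transcript in the basic set of GENCODE, whichever transcripts the cells expressed. Named were members past the fold minimum or among the 6 largest changes of a comparison, *Smarcc2*, *Smarca2*, *Actl6a*, *Wdr82*, *Ptk2*, and 3 other chromatin genes per direction. The rule also named 1 gene that is not reported here. Values of further called members were added after the results were seen. The members and lists were chosen with earlier results of these data known. Shared reads were approximated by a sample of each gene's 31-base words.

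Same-numbered libraries of different cell lines did not deviate together (mean r = -0.00768 over 9 pairs, -0.0464 to 0.0453), so the numbers were not used as pairs. The mean over the 18 pairs of different number was 0.00353. Deviations are taken from the mean of each group, which ties this value to the first, so it is no independent reference. Alternatives were DESeq2 1.42.0, its size factors, library size, filterByExpr, at least 10 counts in every library, only the groups compared, a replicate block and each library left out. A GC correction and leaving out both unusual libraries were added after seeing the data.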

Additional observations from a re-analysis of the deposited data

How the results depend on the processing

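The number of members changed was 12, 13 and 6 in FAK-WT against FAK-/-, FAK-WT against FAK-kd and FAK-kd against FAK-/- cells. Leaving out each library in turn, it ranged from 8 to 16, 5 to 28 and 2 to 7, the number past the fold minimum from 0 to 1, 1 to 1 and 1 to 2, and the number of other chromatin genes changed (31, 32 and 13) from 11 to 49, 14 to 51 and 4 to 22. In every such fit 7 of the 12, 4 of the 13 and 2 of the 6 member calls stood. With only the groups compared in the fit, 0 members were past the fold minimum and 17 other genes changed in FAK-WT against FAK-/-, 22 members changed in FAK-WT against FAK-kd, and 3 members and 6 other genes in FAK-kd against FAK-/- cells. Without both FAK-WT replicate 1 and FAK-/- replicate 3, other genes changed numbered 54, 54 and 26, and members 31 in FAK-WT against FAK-kd and 12 in FAK-kd against FAK-/- cells. GC correction gave 54 other genes in FAK-WT against FAK-/-, 23 members in FAK-WT against FAK-kd and 25 other genes in FAK-kd against FAK-/- cells. Requiring at least 10 counts in every library left 8083 identifiers and 0, 0 and 0 members past the fold minimum, since *Smarca2* and *Hdac9* fell under it. DESeq2 called 12, 11 and 7 members, sharing 12, 11 and 6 with edgeR. Over all alternatives, 336 values of named genes that were called kept their call and 54 lost it, 16 uncalled values gained one and 341 did not, and no called value changed direction. The causes of these shifts were not tested. Shares of all identifiers called are not given for these alternatives, so the counts are not set against a background.

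With the replicate number as a block, 13, 10 and 8 members changed, of which 12, 9 and 6 were also called without it, and 0 were past the fold minimum in FAK-WT against FAK-/- cells. Libraries of the same number showed no shared deviation, which does not tell whether they were prepared together. The depth of FAK-WT replicate 1 limits the members under 3.78 CPM there.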
